A study of Anopheles coluzzii and Anopheles merus with 32 samples.

Results

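Larvae of Anopheles merus and Anopheles coluzzii shared 80 genes whose messenger RNA differed between saltwater (SW) and freshwater (FW) in the same direction in both species and at both ages. They were chosen from 11025 gene identifiers, of which 10505 averaged at least 1 CPM, the authors' read count scaled for library size, over the 32 libraries and were tested. For each species and age, d is the mean log2(CPM + 1) of the SW libraries minus that of the FW libraries. A member had all 4 d of the same sign, with an absolute d of at least 0.6 in An. merus at both ages and of at least 0.5 in An. coluzzii at both ages. The 52 members that were higher in SW are called risers and the 28 that were lower in SW fallers. The rule left out 3 further identifiers.

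The 8 groups were An. merus at 66 h after hatching in SW and in FW, An. merus at 18 h in SW and in FW, and An. coluzzii in the same 4 states. Each was represented by 4 libraries, and each library was made from the whole bodies of 35 to 50 pooled larvae. Every larva had been reared in FW and was then held for 6 h in SW or FW, so the FW groups went through the same holding period. The labels name no strain, do not give the salinity of the SW, and do not give the number of cultures behind a group. The p-values below therefore measure the spread between libraries, which may be technical. In whole larvae, fewer cells of a type and less RNA per cell cannot be told apart.

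As background, a mosquito larva in fresh water gains water by osmosis and loses salts. Its anal papillae take up ions, and its Malpighian tubules and rectum together produce dilute urine. Saline water reverses these gradients, and larvae that tolerate it excrete the excess salt, with the rectum as a main site. An. merus is a salt-tolerant member of the Anopheles gambiae complex that breeds in brackish coastal pools, while An. coluzzii, a major African malaria vector of the same complex, breeds in fresh water. None of the 11025 identifiers matched the gene table used here (0 matches), so members are given by identifier, without names or roles. For the same reason no pathway list, tissue marker or sequence could be set beside them.

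The libraries held 3769859 to 16633623 reads. In 1 group the libraries divided into pairs by the level of the risers. In An. coluzzii at 18 h in FW, the mean log2(CPM + 1) over the 52 risers was 3.75 and 3.69 in replicates 1 and 2 and 4.16 and 4.11 in replicates 3 and 4. Over all tested genes the 4 means were 4.29, 4.32, 4.40 and 4.40. Replicates 1 and 2 differed by 5.36 times sampling noise, the lowest ratio of the 48 replicate pairs, and replicates 3 and 4 by 28.1 times. This ratio grows with the number of reads, so it does not rank pairs of unlike depth by their likeness. Replicates 1 and 2 held 5006216 and 6630138 reads, and replicates 3 and 4 held 10715120 and 11873495. Without replicates 1 and 2 of this group the median d of the risers in An. coluzzii at 18 h was 0.52, against 0.72 with them, and that of the fallers was -0.64, against -0.75. The rule then chose 31 risers and 48 fallers, which included 27 of the 52 risers and 23 of the 28 fallers.

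The thresholds were passed by 3808 genes in An. merus at 66 h, 3265 in An. merus at 18 h, 687 in An. coluzzii at 66 h and 1281 in An. coluzzii at 18 h. All 4 were passed by 121 genes, and 80 of these had 1 sign throughout. A further 438 genes had 1 sign in all 4 comparisons and missed a single threshold. For 316 of those 438 the missed threshold was An. coluzzii at 66 h and for 100 it was An. coluzzii at 18 h, so most near misses were in An. coluzzii. Members just inside were AGAP000141 (smallest d 0.50), AGAP009801 (0.50) and AGAP008219 (0.61 against the threshold of 0.6) among risers. The last of these, in An. merus at 66 h, was 0.37 without SW replicate 2. Among fallers they were AGAP006785, AGAP001092 and AGAP010380, each with a d of -0.50 in An. coluzzii. Just outside were AGAP013668, with d of 0.60 in An. merus at 66 h to 2 decimals, AGAP008805, at 0.49 in An. coluzzii at 18 h, and AGAP000512, at 0.49 in An. coluzzii and 0.60 in An. merus at 66 h. On the lower side AGAP012636, AGAP004467 and AGAP002488 each stood at -0.50 to 2 decimals in An. coluzzii at 66 h, just short of the threshold. The genes just outside were picked for these values. Because d chose the members, it is described below without a test.

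**Figure D1:**
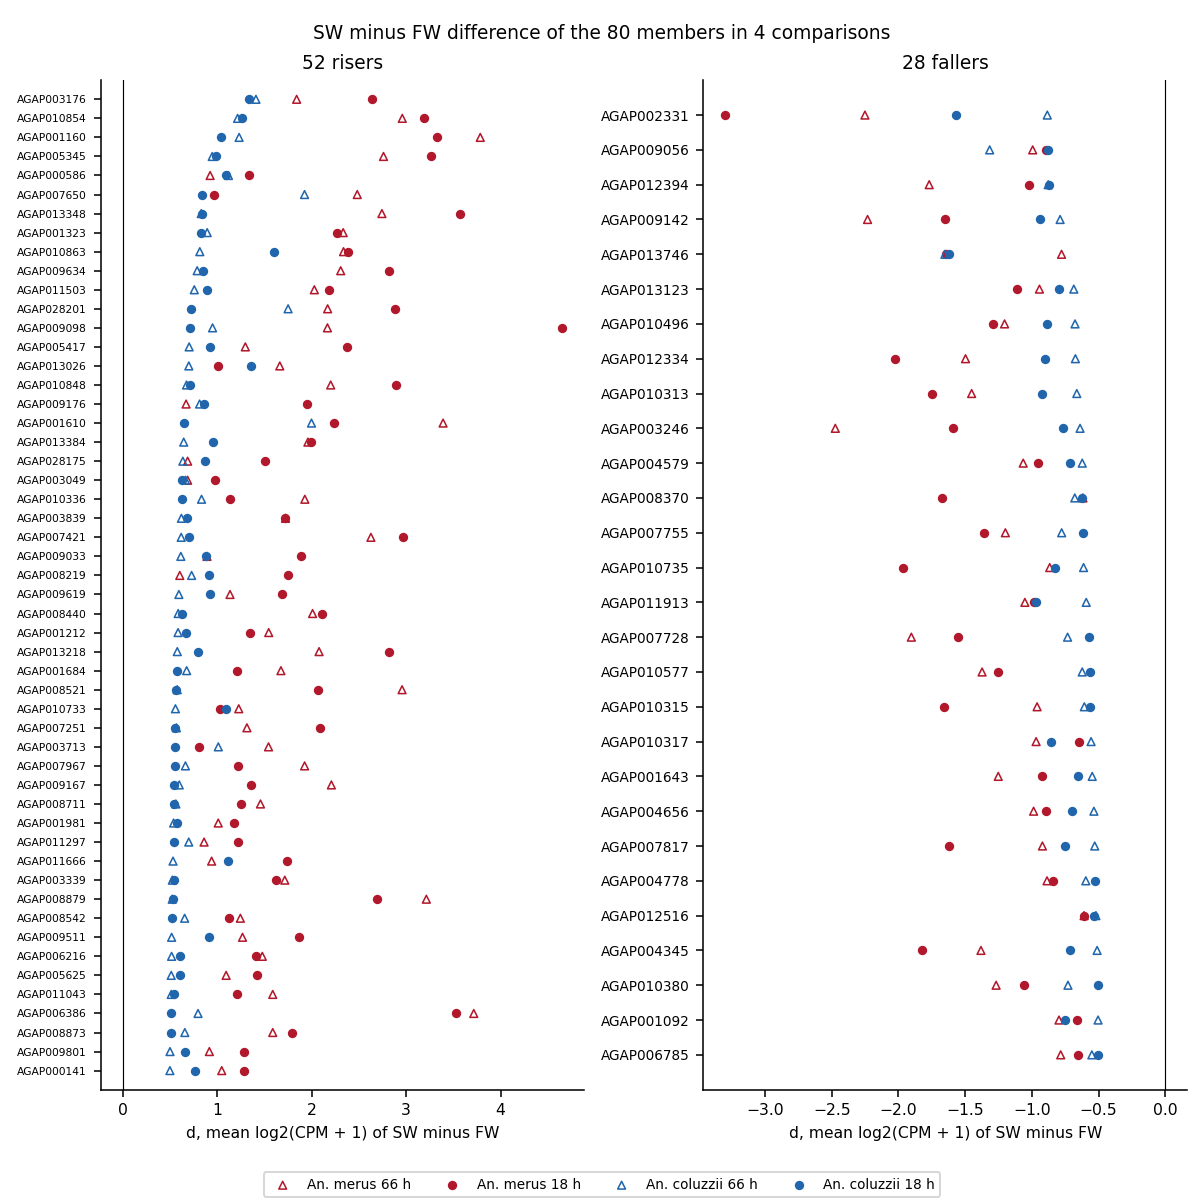
SW minus FW difference d, in log2(CPM + 1), of every member (rows), risers on the left and fallers on the right, ordered by the smallest absolute d. Triangles stand for 66 h and circles for 18 h, in red for An. merus and blue for An. coluzzii. The red points lie farther from 0 than the blue ones for most members, and the blue points crowd near the threshold of 0.5.

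The 52 risers had a median d of 1.70 in An. merus at 66 h and 1.77 at 18 h. In An. coluzzii the medians were 0.66 at 66 h and 0.72 at 18 h. On the linear scale of CPM + 1 these medians were 3.24-fold and 3.40-fold in An. merus and 1.58-fold and 1.64-fold in An. coluzzii, at 66 h and 18 h. Over all tested genes the medians lay between -0.06 and 0.00. Their levels were spread widely, with a mean over all libraries of 1.70 to 653 CPM and a median of 40.4 CPM, against 20.4 CPM for all tested genes. In 5 risers at least 1 group averaged under 1 CPM, and in 15 under 5 CPM. The added 1 in log2(CPM + 1) understates the change of such genes.

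All 4 SW libraries lay above all 4 FW libraries for 50 of the 52 risers in An. merus at 66 h (22.8% of all tested genes did so) and for 51 at 18 h (25.1% of all tested genes). In An. coluzzii this held for 34 at 66 h (5.32% of all tested genes) and 26 at 18 h (4.02%). It held in all 4 comparisons for 17 risers (0.714% of all tested genes). The rule had chosen genes for large differences, so these counts describe the members and carry no test. 1 riser, AGAP013026, overlapped in all 4 comparisons and is given below.

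AGAP003176 was the riser whose smallest d was largest. At 66 h in An. merus it stood at 86.4, 118, 88.7 and 73.7 CPM in the SW libraries, against 22, 23.6, 23.4 and 29.7 CPM in the FW libraries. Its levels at 18 h were 109.7, 102, 89.4 and 111 CPM in the SW libraries, against 17.5, 20.5, 11.2 and 15.1 CPM in the FW libraries. The waters were far apart at both ages of An. merus. Larvae of An. coluzzii at 66 h had 38.2, 26.4, 29 and 24.3 CPM in the SW libraries, against 8.96, 10.9, 8.29 and 13.8 CPM in the FW libraries. The 18 h larvae had 40.00, 38.2, 16.3 and 21.3 CPM in the SW libraries, against 5.75, 10.8, 14.1 and 11.8 CPM in the FW libraries. None of the 4 pairs of groups overlapped, although SW replicates 3 and 4 of An. coluzzii at 18 h came close to FW replicate 3. The d of this gene was 1.84 at 66 h and 2.63 at 18 h in An. merus, and 1.41 and 1.34 in An. coluzzii at the same ages.

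AGAP001160 had the largest d of all members in An. merus at 66 h. Its levels there were 245, 281, 230.3 and 195 CPM in the SW libraries, against 17.1, 11.9, 15.6 and 21.5 CPM in the FW libraries. At 18 h they were 147, 196, 182 and 202 CPM in the SW libraries, against 17.1, 17.5, 13.2 and 21.5 CPM in the FW libraries. In An. coluzzii its FW levels were similar to those of An. merus or somewhat above, and its SW levels were lower. They were 57.7, 65.5, 57.1 and 40.8 CPM in the SW libraries, against 20.3, 17.2, 27.8 and 26.8 CPM in the FW libraries at 66 h. They were 45.1, 48.4, 57.8 and 58.9 CPM in the SW libraries, against 23, 27.2, 24.4 and 24.8 CPM in the FW libraries at 18 h. No groups overlapped in any of the 4 comparisons, and its d was 3.78 at 66 h and 3.33 at 18 h in An. merus, and 1.23 and 1.04 in An. coluzzii at the same ages.

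AGAP010854 also differed widely in An. merus, but less regularly in An. coluzzii. In An. merus at 66 h it stood at 568, 479, 424 and 416 CPM in the SW libraries, against 72.5, 42.7, 92.7 and 43 CPM in the FW libraries. At 18 h it stood at 407, 403, 483 and 551 CPM in the SW libraries, against 59.7, 57.7, 47.1 and 36 CPM in the FW libraries. In An. coluzzii the libraries overlapped at both ages. At 66 h they stood at 71.5, 49.9, 42.3 and 90.2 CPM in the SW libraries, against 34.2, 54.2, 14.4 and 15.6 CPM in the FW libraries, where FW replicate 2 lay above SW replicates 2 and 3. At 18 h they stood at 93.1, 72.9, 33.1 and 34.1 CPM in the SW libraries, against 12.4, 20.2, 34.1 and 24.5 CPM in the FW libraries, where FW replicate 3 lay above SW replicates 3 and 4. Its d was 2.96 at 66 h and 3.19 at 18 h in An. merus, and 1.22 and 1.26 in An. coluzzii at the same ages.

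**Figure D2:**
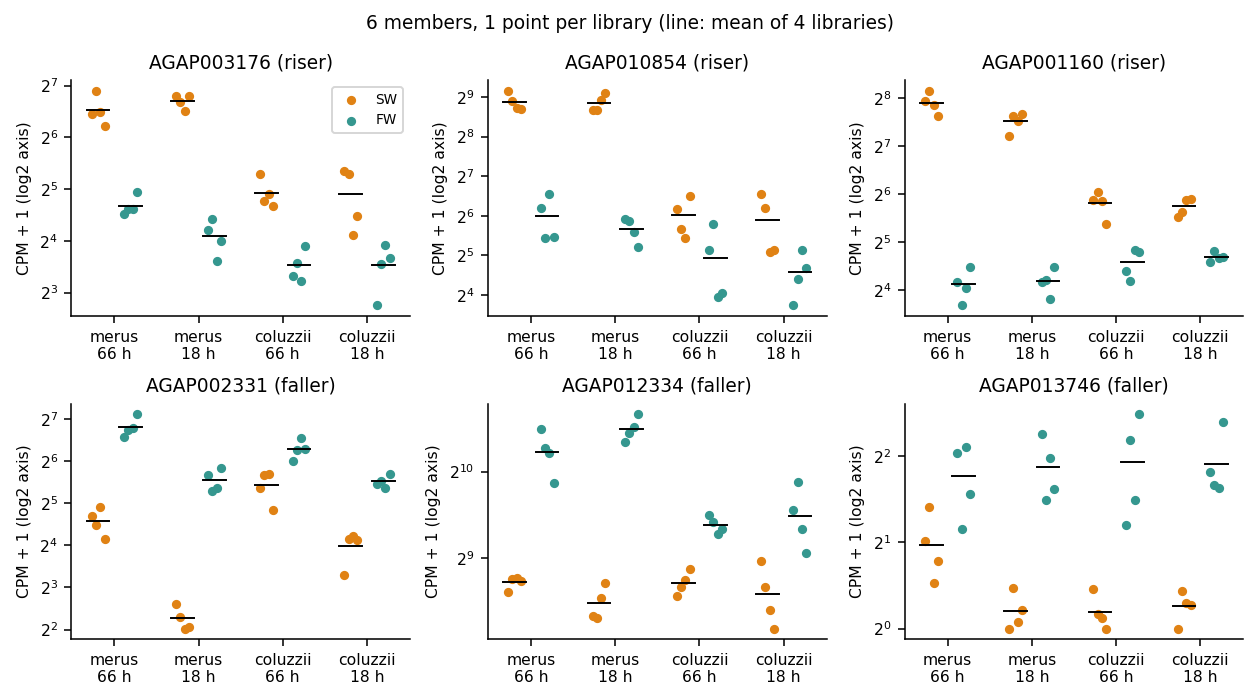
CPM + 1 on a log2 axis in each of the 32 libraries for 3 risers (top) and 3 fallers (bottom), with SW in orange to the left of FW in green within each species and age. Lines mark the mean of 4 libraries. The waters are separate in every group for AGAP003176 and AGAP001160, while the An. coluzzii libraries of AGAP010854 overlap.

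AGAP005345 and AGAP013348 were likewise separate between waters in An. merus. AGAP005345 averaged 105 ± 22.2 CPM in SW and 14.9 ± 4.49 CPM in FW in An. merus at 66 h (mean ± SD, n = 4 here and below), and 36.7 ± 15 CPM in SW and 18.1 ± 7.52 CPM in FW in An. coluzzii. AGAP013348 averaged 46.4 ± 7.23 CPM in SW and 2.95 ± 0.276 CPM in FW in An. merus at 18 h, a d of 3.57, and 23.4 ± 6.98 CPM in SW and 12.7 ± 4.11 CPM in FW in An. coluzzii, a d of 0.84. In An. coluzzii both genes showed an overlap of SW and FW libraries at 66 h and none at 18 h. AGAP001323, AGAP009634, AGAP010863 and AGAP011503 had d between 2.03 and 2.82 in An. merus and between 0.76 and 1.60 in An. coluzzii. AGAP010863 differed most in An. coluzzii at 18 h, at 23.9 ± 6.1 CPM in SW and 7.4 ± 2.81 CPM in FW, a d of 1.60 that was the largest of any riser in that comparison.

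AGAP000586 was the riser with the most even difference between the species. At 66 h in An. merus it stood at 175, 155, 160.1 and 98 CPM in the SW libraries, against 89.9, 75.4, 55.5 and 84.4 CPM in the FW libraries, and in An. coluzzii at 66 h at 248, 278, 319 and 258 CPM in the SW libraries, against 114, 133, 125 and 132 CPM in the FW libraries. At 18 h its levels were much lower, at 24, 21.8, 18.9 and 24.2 CPM in the SW libraries, against 7.45, 8.37, 7.36 and 9.54 CPM in the FW libraries in An. merus and 25.5, 33.1, 35.1 and 39.8 CPM in the SW libraries, against 9.14, 8.85, 18.6 and 31.9 CPM in the FW libraries in An. coluzzii. FW replicate 4 of An. coluzzii at 18 h lay within the SW libraries, and the other comparisons did not overlap. The mean d of An. merus over its ages was 1.02 times that of An. coluzzii.

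AGAP008879 and AGAP006386 stood at the other end, with a mean d in An. merus that was 5.57 and 5.52 times that in An. coluzzii. AGAP006386, chosen after its values were seen, stood in An. merus at 66 h at 209.5, 231, 232 and 251 CPM in the SW libraries, against 16.4, 16.6, 14.5 and 19.3 CPM in the FW libraries. Larvae of An. coluzzii at 66 h had 19.1, 36.8, 30.2 and 19.8 CPM in the SW libraries, against 13.3, 16.7, 13.3 and 13.8 CPM in the FW libraries. The FW levels of the species nearly coincided, and the SW levels of An. merus lay far above. Its levels at 18 h were 142, 190.2, 181 and 218 CPM in the SW libraries, against 14.4, 13.3, 17.4 and 14.3 CPM in the FW libraries in An. merus, and at 19.6, 17.9, 17.7 and 17.5 CPM in the SW libraries, against 13.9, 11.2, 12.6 and 12.1 CPM in the FW libraries in An. coluzzii. No pair of SW and FW groups of this gene overlapped. AGAP008879 averaged 229 ± 43.3 CPM in SW and 23.5 ± 1.65 CPM in FW in An. merus at 66 h, and 43.1 ± 3.1 CPM in SW and 29.7 ± 3.3 CPM in FW in An. coluzzii.

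A few risers differed far more at 66 h than at 18 h in both species. AGAP007650 stood at 26, 20.2, 24 and 18.7 CPM in the SW libraries, against 3.75, 2.54, 3.88 and 2.51 CPM in the FW libraries in An. merus at 66 h. The 18 h larvae had 4.14, 3.9, 6.3 and 8.65 CPM in the SW libraries, against 2.48, 2.45, 1.77 and 2.64 CPM in the FW libraries. In An. coluzzii it averaged 14.8 ± 2.58 CPM in SW and 3.18 ± 0.741 CPM in FW at 66 h, and 4.34 ± 1.76 CPM in SW and 1.88 ± 0.308 CPM in FW at 18 h. The FW level of this gene was low and alike in all 4 FW groups, and its d was 2.48 and 1.93 at 66 h, against 0.97 and 0.84 at 18 h, in An. merus and An. coluzzii. AGAP001610, chosen after its values were seen, had d of 3.39 at 66 h and 2.23 at 18 h in An. merus, and 2.0 and 0.65 in An. coluzzii at the same ages. The last of these values was 0.47 without SW replicate 3 and 0.98 without SW replicate 1. AGAP028201 was larger at 66 h in An. coluzzii, with a d of 1.75 against 0.73, and larger at 18 h in An. merus, with 2.17 at 66 h and 2.88 at 18 h.

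The largest d of all was that of AGAP009098 in An. merus at 18 h, at 4.65, a gene named for this value. It stood there at 37.5, 38.8, 44.6 and 62 CPM in the SW libraries, against 0.596, 0.644, 1.32 and 0.805 CPM in the FW libraries, with 2283 reads over the SW libraries and 27 over the FW libraries. At 66 h it stood at 87.7, 76.6, 68.9 and 63.7 CPM in the SW libraries, against 15.6, 15.6, 13.1 and 18.6 CPM in the FW libraries. The FW group was far lower at 18 h than at 66 h, and the SW groups of the 2 ages lay closer together. In An. coluzzii it averaged 20.2 ± 7.97 CPM in SW and 9.83 ± 3.56 CPM in FW at 66 h and 2.31 ± 0.939 CPM in SW and 1.0 ± 0.439 CPM in FW at 18 h, with overlapping libraries at both ages.

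AGAP013026, chosen after its values were seen, passed the rule with libraries that overlapped in every comparison. In An. merus at 66 h it stood at 33.3, 31.6, 38.7 and 57 CPM in the SW libraries, against 4.28, 10.2, 10.7 and 35.9 CPM in the FW libraries. At 18 h it stood at 11.6, 66.9, 47.5 and 50.3 CPM in the SW libraries, against 29.3, 12.7, 36 and 7.47 CPM in the FW libraries. In An. coluzzii at 18 h it stood at 30.2, 24.9, 56 and 62.6 CPM in the SW libraries, against 19.6, 2.16, 33.6 and 29.3 CPM in the FW libraries. Its d there was 1.36, and 0.57 without FW replicate 2. At 66 h in An. coluzzii its d was 0.70, and 0.28 without SW replicate 2. AGAP001684 had a similar weakness in An. coluzzii at 18 h, where it stood at 7.03, 53.9, 19.6 and 3.19 CPM in the SW libraries, against 5.75, 10.1, 15.8 and 5.18 CPM in the FW libraries. Its d of 0.57 in that comparison became -0.08 without SW replicate 2.

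The most abundant risers were AGAP009511, AGAP010848 and AGAP003713. AGAP010848 averaged 1986 ± 359.7 CPM in SW and 437 ± 114 CPM in FW in An. merus at 66 h, and 696 ± 208 CPM in SW and 90.9 ± 16 CPM in FW at 18 h. In An. coluzzii it averaged 694 ± 193 CPM in SW and 431 ± 111 CPM in FW at 66 h and 203 ± 61.9 CPM in SW and 119 ± 3.64 CPM in FW at 18 h. Its FW levels in the 2 species were close at 66 h. AGAP009511 averaged 1252 ± 169 CPM in SW and 532 ± 159 CPM in FW in An. merus at 66 h, and 786 ± 81 CPM in SW and 550.1 ± 78.7 CPM in FW in An. coluzzii. AGAP003713 averaged 1096 ± 169 CPM in SW and 387 ± 125 CPM in FW in An. merus at 66 h. In An. coluzzii at 18 h AGAP003713 stood at 94.2, 90.2, 57.7 and 42.4 CPM in the SW libraries, against 25.8, 36.3, 70.5 and 65.3 CPM in the FW libraries, and its d of 0.56 there became -0.01 without FW replicates 1 and 2.

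The 28 fallers had a median d of -1.06 in An. merus at 66 h and -1.27 at 18 h. In An. coluzzii the medians were -0.63 at 66 h and -0.75 at 18 h. Their SW libraries all lay below their FW libraries for 27 fallers in An. merus at 66 h (27.1% of all tested genes) and 26 at 18 h (25.1% of all tested genes). In An. coluzzii this held for 23 at 66 h (5.88%) and 22 at 18 h (5.05%). It held in all 4 comparisons for 15 of the 28 (0.828% of all tested genes). Fallers averaged 1.505 to 699.8 CPM over all libraries, with a median of 19.5 CPM. In 3 of them at least 1 group averaged under 1 CPM, and in 15 under 5 CPM.

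AGAP002331 was the faller whose smallest d was farthest from 0. At 66 h in An. merus it stood at 25, 21.3, 29.1 and 16.7 CPM in the SW libraries, against 95.2, 106, 110.5 and 138 CPM in the FW libraries. Its levels at 18 h were 5.09, 3.9, 3.06 and 3.15 CPM in the SW libraries, against 49.7, 38.1, 40.5 and 56 CPM in the FW libraries. In both cases every SW library was below every FW library by a wide margin. In An. coluzzii it stood at 40.5, 49.9, 51 and 27.7 CPM in the SW libraries, against 63.8, 75.7, 93 and 77.1 CPM in the FW libraries at 66 h. The 18 h larvae had 8.82, 16.7, 17.7 and 16.4 CPM in the SW libraries, against 43, 45.3, 40.3 and 51 CPM in the FW libraries. The groups were separate in all 4 comparisons, and the d was -2.25 at 66 h and -3.30 at 18 h in An. merus, and -0.88 and -1.57 in An. coluzzii at the same ages. The FW levels of the species were close at 18 h, and the SW level was lower in An. merus at both ages.

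AGAP012334 was the most abundant faller. Larvae of An. merus at 66 h had 388, 432, 433 and 425 CPM in the SW libraries, against 1443, 1233, 1184 and 936 CPM in the FW libraries. At 18 h it stood at 319.5, 314, 369 and 415 CPM in the SW libraries, against 1297, 1394, 1469 and 1620.0 CPM in the FW libraries. In An. coluzzii it stood at 374, 403, 427 and 465 CPM in the SW libraries, against 718, 681, 616 and 645 CPM in the FW libraries at 66 h, and at 497, 405, 336 and 289 CPM in the SW libraries, against 751, 939, 644 and 529.9 CPM in the FW libraries at 18 h. SW levels of this gene were alike in all 4 SW groups, with means from 354 to 419.6 CPM, and the FW levels were higher in An. merus. SW and FW libraries did not overlap in any comparison.

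AGAP013746 was close to the limit of detection in SW. In An. coluzzii at 66 h it stood at 0.371, 0.125, 0.0849 and 0 CPM in the SW libraries, against 1.3, 3.54, 1.8 and 4.58 CPM in the FW libraries, which was 5 reads over the SW libraries and 85 over the FW libraries. Its levels at 18 h were 0, 0.355, 0.224 and 0.213 CPM in the SW libraries, against 2.51, 2.16, 2.09 and 4.23 CPM in the FW libraries. In An. merus at 18 h it stood at 0, 0.382, 0.0578 and 0.162 CPM in the SW libraries, against 3.77, 1.8, 2.94 and 2.07 CPM in the FW libraries. The groups did not overlap in these 3 comparisons. At 66 h in An. merus it stood at 1.02, 1.65, 0.444 and 0.726 CPM in the SW libraries, against 3.11, 1.23, 3.28 and 1.93 CPM in the FW libraries, and there SW replicate 2 lay above FW replicate 2. AGAP013746 and AGAP009056 were the only fallers with a smaller mean d in An. merus than in An. coluzzii, at 0.74 and 0.859 times.

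AGAP003246 had the d farthest from 0 of the fallers in An. merus at 66 h. AGAP003246 stood there at 1.02, 0.993, 0.665 and 1.09 CPM in the SW libraries, against 11.4, 14.6, 9.33 and 5.7 CPM in the FW libraries, a d of -2.47. Larvae of An. coluzzii at 66 h had 3.34, 4.32, 5.35 and 4.36 CPM in the SW libraries, against 7.9, 7.59, 7.57 and 6.04 CPM in the FW libraries, a d of -0.64. At 18 h it averaged 0.531 ± 0.131 CPM in SW and 3.63 ± 0.463 CPM in FW in An. merus, and 0.302 ± 0.0986 CPM in SW and 1.24 ± 0.394 CPM in FW in An. coluzzii. The SW and FW libraries were separate in all 4 comparisons. AGAP009142 averaged 7.9 ± 1.02 CPM in SW and 40.9 ± 5.79 CPM in FW in An. merus at 66 h, and 50.05 ± 3.78 CPM in SW and 88.4 ± 18.4 CPM in FW in An. coluzzii, with higher levels in An. coluzzii in both waters.

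Others among the 12 fallers with the largest smallest absolute d were AGAP012394, AGAP013123, AGAP010496, AGAP010313, AGAP004579 and AGAP008370. AGAP012394 averaged 17.8 ± 3.0 CPM in SW and 66.1 ± 25.9 CPM in FW in An. merus at 66 h, and 25.5 ± 7.02 CPM in SW and 49.5 ± 20.02 CPM in FW in An. coluzzii. AGAP010496 had closely placed libraries, at 7.27, 8.77, 10.2 and 7.81 CPM in the SW libraries, against 25.7, 21.7, 20.1 and 16.5 CPM in the FW libraries in An. merus at 66 h, and at 16, 15.5, 17.9 and 16.4 CPM in the SW libraries, against 28.4, 30.1, 24.9 and 24.4 CPM in the FW libraries in An. coluzzii. AGAP013123 and AGAP004579 were low genes, and no group of either exceeded 6 CPM in the mean. AGAP008370 averaged 84.2 ± 14.5 CPM in SW and 278 ± 78.6 CPM in FW in An. merus at 18 h. In An. coluzzii at 18 h it stood at 92.5, 64.5, 16.8 and 22.3 CPM in the SW libraries, against 28.1, 48.6, 98.9 and 97.5 CPM in the FW libraries, with strong overlap, and its d of -0.62 there became -0.23 without SW replicate 3. AGAP009056 had a d of -0.89 in An. merus at 18 h that became -0.43 without FW replicate 3.

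The difference was larger in An. merus for most members of either kind. The absolute d was larger in An. merus than in An. coluzzii for 49 of the 52 risers at 66 h and 50 at 18 h, and for 47 at both ages. Among the 28 fallers this held for 25 at 66 h, 26 at 18 h and 23 at both ages. The same was true of 80.6% of all tested genes at 66 h and 73.9% at 18 h. The mean d of An. merus over its ages was 1.02 to 5.57 times that of An. coluzzii among the risers, with a median of 2.30, and exceeded 3 times in 15 of them. Among the fallers it was 0.74 to 2.89 times, with a median of 1.79 and no member above 3 times. The median ratio of all tested genes was also 2.30. The thresholds were higher in An. merus and chose for these values, so no test is given.

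**Figure D3:**
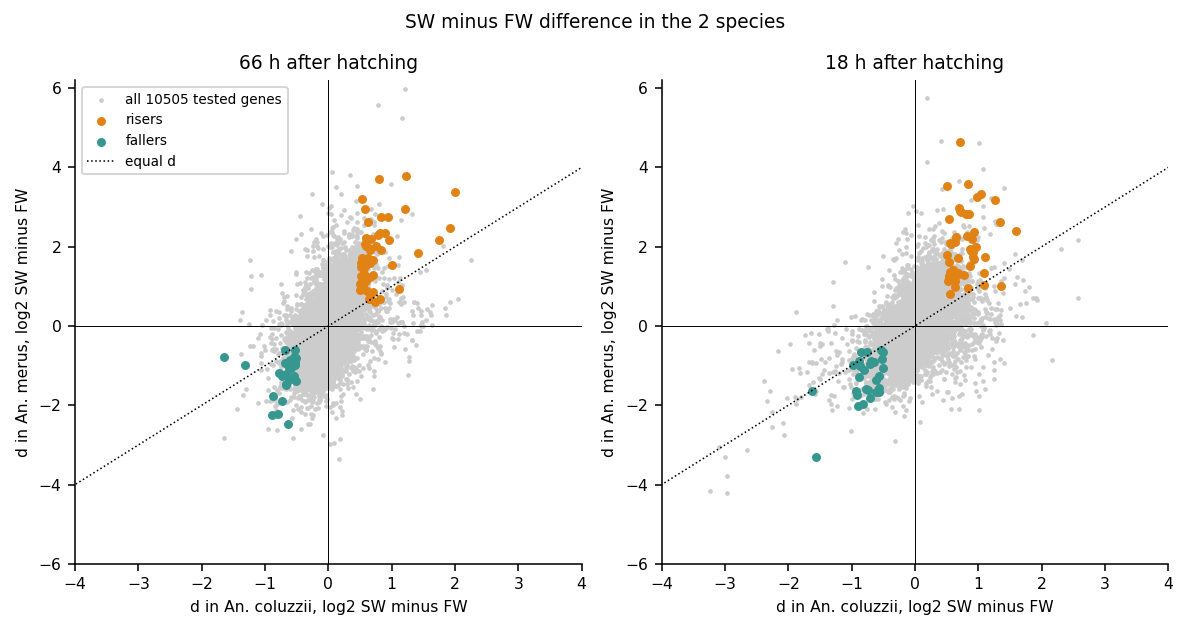
SW minus FW difference d of each tested gene (grey) in An. merus (y axis) and An. coluzzii (x axis), at 66 h on the left and 18 h on the right, in log2(CPM + 1). Risers are orange and fallers green, and the dotted line marks equal d. Most risers lie above the line and most fallers below it, where the absolute d is larger in An. merus. Counted by absolute d and not by side of the line, this held for 80.6% and 73.9% of all tested genes at 66 h and 18 h.

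With age, the size of d moved either way. It was larger at 66 h than at 18 h for 21 of the 52 risers in An. merus and for 21 in An. coluzzii, with 13 larger at 66 h in both species and 23 larger at 18 h in both. Of all tested genes 56.2% were larger at 66 h in An. merus and 41% in An. coluzzii, 25.4% in both, and 28.1% were larger at 18 h in both. Among the 28 fallers it was larger at 66 h for 16 in An. merus and 11 in An. coluzzii, with 7 larger at 66 h in both and 8 larger at 18 h in both.

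Levels of the members in the 2 species were compared over the mean of both waters. The rule did not choose on this mean, but the mean holds a share of d, as set out below, so it is not free of the choice. Both species share 1 set of identifiers, and how well the reads of each align was not examined. A species difference in alignment and one in RNA therefore cannot be told apart. The test was limma's moderated test on log2(CPM + 1), with Benjamini-Hochberg adjustment over 10505 genes and adjusted p below 0.05 as the call. At 66 h, 37 of the 52 risers were higher in An. merus than in An. coluzzii and 7 were lower, while 35.8% of all tested genes were higher and 33.8% lower. When all libraries were scaled to 1 common sum, the counts were 28 and 10, while over all 10505 tested genes they were 2015 and 5316. At 18 h, 35 risers were higher and 7 lower, while 34.7% of all tested genes were higher and 30.4% lower. Of the risers, 32 were higher at both ages (26.7% of all tested genes) and 6 lower at both (24% of all tested genes). Among the 28 fallers 3 were higher and 16 lower at 66 h, and 5 higher and 18 lower at 18 h. 13 fallers were lower in An. merus at both ages and 3 higher at both.

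This mean over waters equals the FW difference between the species plus a fixed share of the difference in d, and d was larger in An. merus for most members. The calls above thus partly carry the d that chose the members. The values in each water are therefore set side by side. The median species difference of the risers, An. merus minus An. coluzzii, was 1.16 in SW and 0.13 in FW at 66 h, and 1.22 in SW and 0.11 in FW at 18 h. In FW 32 risers were higher in An. merus at 66 h and 20 lower, and 29 higher and 23 lower at 18 h, counted by sign. Of the 10505 tested genes 5681 were higher and 4824 lower at 66 h, and 5506 higher and 4989 lower at 18 h. The fallers had medians of -0.83 in SW and -0.06 in FW at 66 h, and -0.70 in SW and -0.12 in FW at 18 h. Over all tested genes the FW medians were 0.06 at 66 h and 0.03 at 18 h. Single members differed either way in FW, from -1.68 to 2.61 among risers and from -2.41 to 1.58 among fallers at 66 h.

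Some members also had a species difference in FW. The SE and adjusted p below belong to the mean of both waters, and the difference in FW alone was not tested. AGAP007251 was higher in An. merus by 2.98 ± 0.21 (SE, adjusted p = 1.1e-12) at 66 h and by 2.86 ± 0.21 (SE, adjusted p = 3.3e-12) at 18 h. At 66 h its difference was 3.36 in SW and 2.61 in FW, with 91.8 ± 24 CPM in SW and 37.9 ± 17.7 CPM in FW in An. merus, and 8.12 ± 2.55 CPM in SW and 5.24 ± 2.15 CPM in FW in An. coluzzii. AGAP001684 was higher by 2.63 ± 0.37 (SE, adjusted p = 7.5e-07) at 66 h and 3.33 ± 0.37 (SE, adjusted p = 1.8e-08) at 18 h. Its difference at 66 h was 3.13 in SW and 2.13 in FW. AGAP010854 was higher by 2.05 ± 0.27 (SE, adjusted p = 1.9e-07) at 66 h, with 2.93 in SW and 1.18 in FW. Its FW libraries at 66 h, given above, overlapped between the species.

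The risers that were lowest in An. merus were AGAP008219, AGAP011043, AGAP000586 and AGAP000141. AGAP008219 differed by -0.99 ± 0.25 (SE, adjusted p = 0.0011) at 66 h, where it averaged 1.34 ± 0.886 CPM in SW and 0.478 ± 0.198 CPM in FW in An. merus, and 3.66 ± 0.636 CPM in SW and 1.84 ± 0.594 CPM in FW in An. coluzzii. AGAP011043 differed by -0.89 ± 0.14 (SE, adjusted p = 2.5e-06) at 66 h, with -0.35 in SW and -1.43 in FW. AGAP000586 differed by -0.83 ± 0.17 (SE, adjusted p = 0.00013) at 66 h, with -0.93 in SW and -0.73 in FW, and AGAP000141 by -0.80 ± 0.13 (SE, adjusted p = 5.4e-06) at 18 h. Each of the 4 passed the test at 66 h and at 18 h.

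Among the fallers the lowest in An. merus were AGAP001092, AGAP010317, AGAP010315 and, at 18 h, AGAP010735. AGAP001092 differed by -2.55 ± 0.11 (SE, adjusted p = 3.3e-18) at 66 h, with 1.37 ± 0.359 CPM in SW and 3.1 ± 0.438 CPM in FW in An. merus, and 14.5 ± 3.43 CPM in SW and 20.7 ± 1.17 CPM in FW in An. coluzzii. AGAP010735 differed by -2.54 ± 0.13 (SE, adjusted p = 3.3e-16) at 18 h, with 5.1 ± 1.2 CPM in SW and 22.5 ± 2.22 CPM in FW in An. merus, and 51.4 ± 8.17 CPM in SW and 92.3 ± 16.8 CPM in FW in An. coluzzii. The fallers that were highest in An. merus were AGAP008370, at 1.61 ± 0.28 (SE, adjusted p = 1.3e-05) at 66 h, AGAP006785, at 0.97 ± 0.12 (SE, adjusted p = 1.9e-08) at 66 h, and AGAP011913, at 0.88 ± 0.19 (SE, adjusted p = 0.00022) at 18 h. AGAP012334 was higher in An. merus by 0.42 ± 0.10 (SE, adjusted p = 0.00074) at 66 h, with 0.01 in SW and 0.83 in FW, but was no longer called under common-sum scaling, at 0.10.

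**Figure D4:**
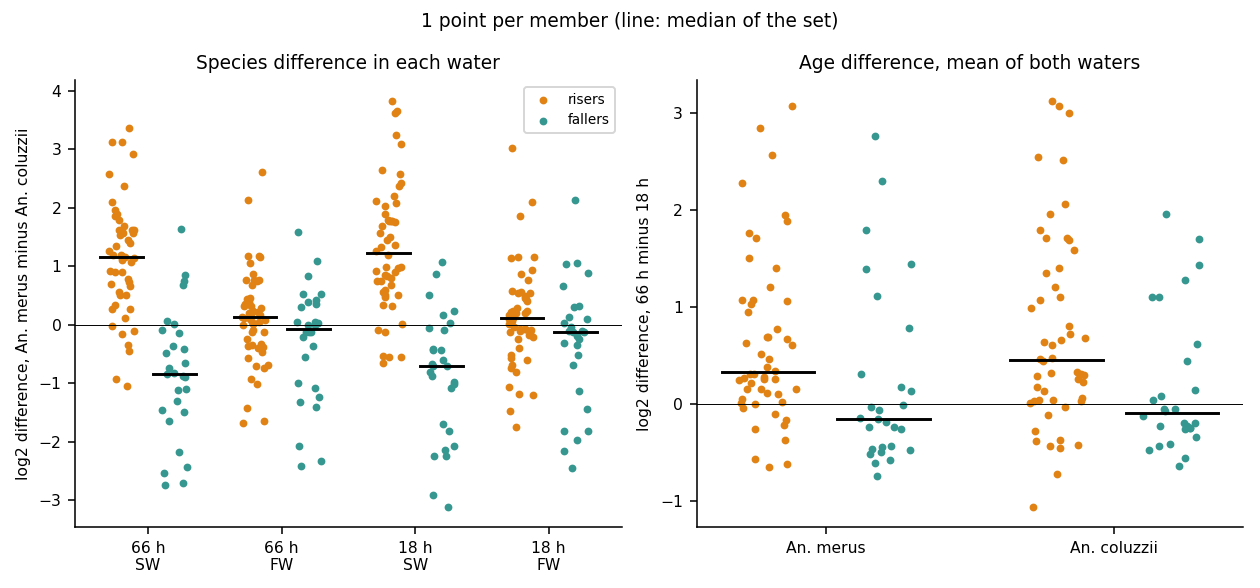
Left, difference of An. merus minus An. coluzzii in each water and age, 1 point per member, with risers in orange, fallers in green and the median as a line, in log2(CPM + 1). Right, difference of 66 h minus 18 h over the mean of both waters in each species. The medians of risers and fallers lie apart in SW, at 1.16 and -0.83 at 66 h, and near 0 in FW, at 0.13 and -0.06.

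Levels of the members were also compared between the ages. Over the mean of both waters, 29 of the 52 risers were higher at 66 h than at 18 h in An. merus and 3 lower (limma, adjusted p below 0.05), while 33.3% of all tested genes were higher and 34.3% lower. In An. coluzzii 32 risers were higher at 66 h and 6 lower, while 35.5% of all tested genes were higher and 33.8% lower. When all libraries were scaled to 1 common sum, the counts were 16 higher and 18 lower in An. merus and 20 higher and 15 lower in An. coluzzii. Over all 10505 tested genes that scaling gave 1334 higher and 6804 lower in An. merus and 1922 higher and 6501 lower in An. coluzzii. Of the called risers 47.1% were then higher in An. merus and 57.1% in An. coluzzii, against 16.4% and 22.8% of all called genes. The scaling moved the median age difference of all genes to -0.47 in An. merus and -0.41 in An. coluzzii, against -0.01 and 0.00 in the deposited values. In the deposited values 26 risers were higher at 66 h in both species (26.3% of all tested genes) and 2 lower in both (26.4% of all tested genes). The 28 fallers were split more evenly, with 7 higher and 11 lower in An. merus and 7 higher and 7 lower in An. coluzzii, and with common-sum scaling 7 and 18 in An. merus and 6 and 17 in An. coluzzii. With quantile scaling the fallers in An. coluzzii were 7 higher and 11 lower. In the deposited values 6 fallers were higher in both species (26.3% of all tested genes) and 5 lower in both (26.4%).

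The largest age differences kept their direction and call under either scaling. AGAP008521 was higher at 66 h by 3.08 ± 0.20 (SE, adjusted p = 1.1e-13) in An. merus and by 3.13 ± 0.20 (SE, adjusted p = 5.2e-14) in An. coluzzii. It averaged 85.2 ± 11 CPM in SW and 10.3 ± 2.93 CPM in FW at 66 h, and 6.7 ± 2.34 CPM in SW and 0.879 ± 0.723 CPM in FW at 18 h, in An. merus. AGAP000586 was higher by 2.85 ± 0.17 (SE, adjusted p = 4.9e-14) and 3.0 ± 0.17 (SE, adjusted p = 1.1e-14) in An. merus and An. coluzzii. AGAP001323 was higher by 2.28 ± 0.16 (SE, adjusted p = 1.1e-12) in An. merus and 3.07 ± 0.16 (SE, adjusted p = 1.4e-15) in An. coluzzii. AGAP028201 was higher by 2.56 ± 0.24 (SE, adjusted p = 4.4e-10) in An. merus. AGAP008219 was the called riser with the lowest age difference, -0.72 ± 0.25 (SE, adjusted p = 0.013) in An. coluzzii. Its difference of -0.65 in An. merus was no longer called without SW replicate 4 at 18 h (-0.56) or at 66 h (-0.59).

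Among the fallers AGAP009056 was higher at 66 h by 2.77 ± 0.23 (SE, adjusted p = 7e-11) in An. merus, and AGAP010735 by 2.30 ± 0.13 (SE, adjusted p = 3.4e-15). AGAP002331 was higher by 1.79 ± 0.14 (SE, adjusted p = 3.9e-12) in An. merus and 1.11 ± 0.14 (SE, adjusted p = 5.1e-08) in An. coluzzii. AGAP003246 was the faller most raised with age in An. coluzzii, by 1.96 ± 0.12 (SE, adjusted p = 2.5e-14). AGAP004656 and AGAP010313 were lower at 66 h in both species. AGAP004656 differed by -0.74 ± 0.11 (SE, adjusted p = 4.8e-07) in An. merus and -0.64 ± 0.11 (SE, adjusted p = 4.4e-06) in An. coluzzii. AGAP010313 differed by -0.61 ± 0.10 (SE, adjusted p = 2.4e-06) and -0.55 ± 0.10 (SE, adjusted p = 9.3e-06) in An. merus and An. coluzzii.

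Whether the age difference itself differed between the species was tested by the interaction of species and age over the mean of both waters. It was called for 2 risers with the more positive age difference in An. merus (10.7% of all tested genes) and 3 with the more negative (12% of all tested genes). Among the fallers it was called for 3 in each direction. AGAP009056 had the largest interaction, at 2.33 ± 0.33 (SE, adjusted p = 1.4e-05). It averaged 65.4 ± 10.02 CPM in SW and 131 ± 12.4 CPM in FW at 66 h, and 9.17 ± 1.95 CPM in SW and 21.8 ± 17.6 CPM in FW at 18 h, in An. merus. In An. coluzzii it averaged 40.9 ± 8.6 CPM in SW and 104 ± 26.2 CPM in FW at 66 h and 35.6 ± 10.6 CPM in SW and 67.5 ± 27 CPM in FW at 18 h. AGAP003246 had an interaction of -1.18 ± 0.18 (SE, adjusted p = 1.6e-05) and AGAP013123 of -1.10 ± 0.23 (SE, adjusted p = 9e-04), both with the more negative age difference in An. merus. Both rest on low levels, where the added 1 shrinks differences. In SW in An. merus AGAP003246 averaged 0.94 CPM (25 reads) at 66 h and 0.53 CPM (26 reads) at 18 h. AGAP013123 averaged 0.196 CPM (5 reads) and 0.593 CPM (32 reads) there. AGAP013123 was called lower at 66 h in An. merus, at -0.48, and higher in An. coluzzii, at 0.62. The second of these calls was lost under common-sum scaling, at 0.33.

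Several members had identifiers close in number, within 10 of each other, although no member had a direct neighbour by number. Their positions in the genome were not looked up, since no annotation of these identifiers was used here. 3 fallers, AGAP010313, AGAP010315 and AGAP010317, alternated with AGAP010314 and AGAP010316. In An. merus at 66 h AGAP010315 stood at 4.66, 5.46, 5.43 and 5.63 CPM in the SW libraries, against 11.8, 10.8, 12.3 and 10.1 CPM in the FW libraries, and in An. coluzzii at 31.6, 26.1, 37.5 and 36.8 CPM in the SW libraries, against 46.3, 53.4, 49.6 and 51.8 CPM in the FW libraries. AGAP010317 stood at 2.76, 3.97, 1.89 and 2.54 CPM in the SW libraries, against 6.1, 5.93, 8.43 and 5.03 CPM in the FW libraries in An. merus at 66 h, and at 24.5, 18.3, 24.5 and 29.5 CPM in the SW libraries, against 28.7, 34.2, 41.3 and 39.4 CPM in the FW libraries in An. coluzzii. Both were lower in An. merus in either water, with differences of -2.24 ± 0.10 (SE, adjusted p = 9.7e-18) and -2.54 ± 0.12 (SE, adjusted p = 4.4e-17) at 66 h. AGAP010313 differed less, by -0.34 ± 0.10 (SE, adjusted p = 0.0026) at 66 h, with -0.73 in SW and 0.05 in FW. The 2 genes between them by number were no members, but their d was also below 0 in all 4 comparisons. It ran from -0.52 to -0.31 for AGAP010314 and from -0.32 to -0.09 for AGAP010316. In An. merus AGAP010316 was close to the limit of detection, so its d there cannot be read as a fall. It averaged 0.114 CPM in SW and 0.295 CPM in FW at 66 h, and 0.0144 CPM in SW and 0.0862 CPM in FW at 18 h. Reads shared between near-identical copies could not be examined.

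AGAP010733, a riser, and AGAP010735, a faller, were 2 apart by number and differed in opposite directions. AGAP010733 averaged 214 ± 23.7 CPM in SW and 92.3 ± 22.8 CPM in FW in An. merus at 66 h, and AGAP010735 averaged 43 ± 8.63 CPM in SW and 79.7 ± 19.9 CPM in FW. In An. coluzzii at 66 h AGAP010733 averaged 198 ± 13.3 CPM in SW and 135 ± 24.9 CPM in FW, and AGAP010735 136 ± 18.7 CPM in SW and 212 ± 55.1 CPM in FW. The other members with close identifiers were risers. They were AGAP008873 with AGAP008879, AGAP009167 with AGAP009176, and AGAP010848 with AGAP010854 and AGAP010863. AGAP009176 had a d of 0.67 in An. merus at 66 h, where FW replicate 4, at 423 CPM, lay within its SW libraries, and 1.95 at 18 h. AGAP009167 showed the reverse order, with 2.21 at 66 h and 1.36 at 18 h.

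How far membership rested on single libraries was examined by leaving out each of the 32 in turn. The number of risers then ran from 42, without An. coluzzii 18 h FW replicate 2, to 70, without An. coluzzii 66 h FW replicate 2. The number of fallers ran from 25, without An. coluzzii 18 h FW replicate 2 or An. merus 18 h FW replicate 3, to 51, without An. coluzzii 66 h SW replicate 4. Leaving out an An. merus library kept 77 to 80 of the 80 members, and leaving out an An. coluzzii library kept 63 to 76. In all 32 cases 21 risers and 11 fallers remained members. Under these and 9 further settings, 41 in all, 12 risers and 6 fallers remained. The 12 risers were AGAP001160, AGAP001323, AGAP003176, AGAP003839, AGAP005345, AGAP005417, AGAP009634, AGAP010848, AGAP010854, AGAP010863, AGAP011503 and AGAP013384. The 6 fallers were AGAP002331, AGAP009142, AGAP010313, AGAP010496, AGAP012334 and AGAP012394.

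**Figure D5:**
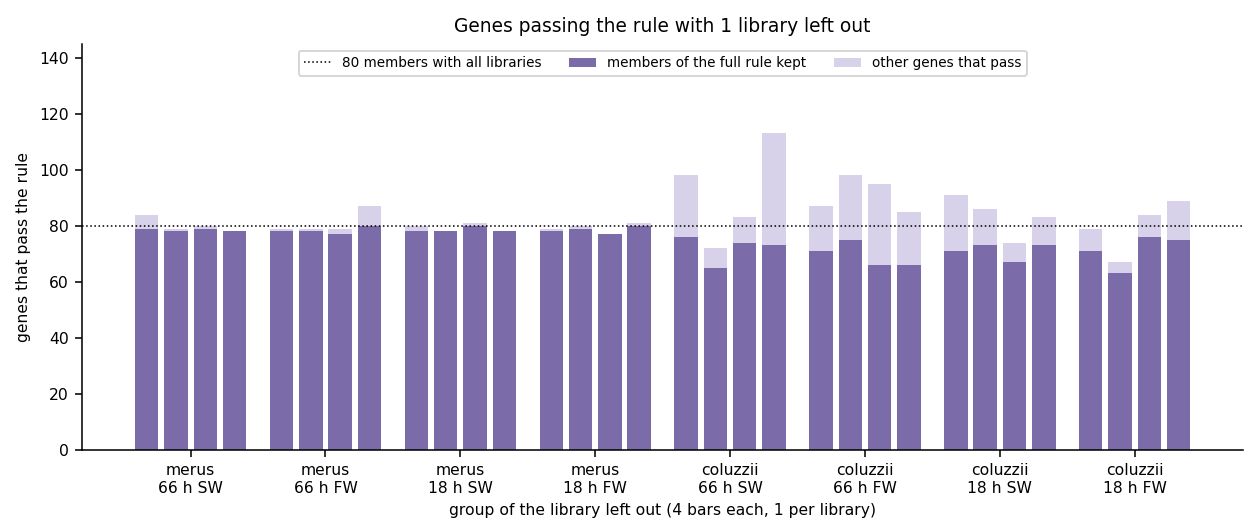
Number of genes that pass the rule when the library on the x axis is left out, with members of the full set in dark purple and other genes in light purple. The dotted line marks the 80 members of the full set. Leaving out an An. merus library keeps 77 to 80 members, and leaving out an An. coluzzii library keeps 63 to 76.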

How the data were processed

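Messenger RNA of whole larvae was sequenced from poly(A)-selected libraries whose kit does not mark strand, per the labels' protocols. Reads of overlapping or antisense genes therefore cannot be told apart by strand. Reads shared between near-identical copies could not be examined. The submitters' processing notes list Trimmomatic, Bowtie2, TopHat2, HTSeq and edgeR without roles or versions. The genome build and annotation are not given in the sources used here, and both species share 1 set of identifiers. The authors deposited 1 filtered table that its name gives as TMM-normalized CPM. The deposited values were treated as a scaled signal rather than plain CPM, since its columns do not sum to the same value. Its steps gave whole reads for 100% of values within 0.01 reads, and the count per library came from them.

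Tests were planned for CPM and used unchanged on this scaled signal. The 10505 genes averaging at least 1 CPM were fitted with limma 3.58.1 in R 4.3.3 on log2(CPM + 1), with 8 group means, 32 libraries and 24 residual degrees of freedom, trended and robust variances and Benjamini-Hochberg adjustment (adjusted p below 0.05). The 4 water comparisons share no library. The script was tested on simulated data. Members, lists and named genes were chosen with earlier results of these data known. Named were the 12 members of each kind with the largest smallest d, the 3 highest and 3 lowest called in each species and age comparison, the 3 just inside and outside the thresholds, the 3 most abundant, and those with close identifiers. Genes outside that rule were chosen after their values were seen. Replicate numbers follow accession order. All 48 pairs of replicates differed by 5.36 to 50.3 times sampling noise over genes with at least 20 reads, so none was merged.

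The alternatives were pseudocounts of 0.5 and 4, a filter at 5 CPM and no filter, common-sum, quantile and DESeq2 1.42.0 scaling, edgeR 4.0.16 on the recovered reads, leaving out each library, and leaving out An. coluzzii 18 h FW replicates 1 and 2 together. Each species and age comparison was also refitted with only the libraries it uses. That refit chose no members and is not among the 41 settings above. The edgeR quasi-likelihood test called 3717 genes higher and 3597 lower in An. merus at 66 h and 3530 and 3311 at 18 h. By age it called 3536 higher and 3656 lower in An. merus and 3627 and 3602 in An. coluzzii. Figures were drawn with matplotlib 3.10.9.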

Additional observations from a re-analysis of the deposited data

Results flagged for a closer look

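The spread of single libraries was examined in 208 groups of 4, made of named members and set means, and in 7 of them 1 library lay far from the other 3 by Dixon's ratio. The ratios of these 7 ran from 0.839 to 0.978. Chance alone is known to mark a small share of groups in this way, and 7 of 208 was not shown to exceed that share. The cases below are therefore a description and no evidence of faulty libraries. AGAP028201 had 8.53 CPM in 1 An. merus 18 h FW library, while the next highest had 1.49 CPM. AGAP003246 had 0.727 CPM in 1 An. merus 18 h SW library, where the next had 0.477 CPM. AGAP010313 had 27.9 CPM in 1 An. merus 66 h FW library, where the next lowest had 40.7 CPM. The other single-gene cases were in An. coluzzii at 18 h. AGAP002331 had 8.82 CPM in 1 SW library, where the next had 16.4 CPM. AGAP009056 had 108 CPM in 1 FW library, where the next had 57.7 CPM. AGAP013123 had 1.55 CPM in 1 FW library, where the next had 3.06 CPM. The mean log2(CPM + 1) of the fallers was 4.07 in 1 An. coluzzii 66 h SW library, where the next lowest was 4.16.

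The age difference, 66 h minus 18 h, differed between the species in 11 members by the interaction of species and age (limma, adjusted p below 0.05). The members had such calls no more often than all tested genes. It was more positive in An. merus for 5 of the 80 members (10.7% of all tested genes). AGAP009056 differed by 2.33, with 2.77 in An. merus and 0.44 in An. coluzzii. AGAP010735 differed by 1.02, with 2.30 in An. merus and 1.28 in An. coluzzii. AGAP002331 differed by 0.69, with 1.79 in An. merus and 1.11 in An. coluzzii. AGAP001981 differed by 0.66, with 0.69 in An. merus and 0.03 in An. coluzzii. AGAP007967 differed by 0.49, with 0.12 in An. merus and -0.37 in An. coluzzii, and was no longer called under common-sum scaling (0.39).

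The interaction was more negative in An. merus for the other 6 (12% of all tested genes). AGAP003246 had -1.18, with age differences of 0.78 in An. merus and 1.96 in An. coluzzii. AGAP013123 had -1.10, with -0.48 in An. merus and 0.62 in An. coluzzii. AGAP001323 had -0.79, with 2.28 in An. merus and 3.07 in An. coluzzii, and was no longer called without An. coluzzii 18 h FW replicates 1 and 2 (-0.67). AGAP009033 had -0.66, with 0.69 in An. merus and 1.35 in An. coluzzii, and was no longer called without An. coluzzii 18 h FW replicate 2 or 18 h SW replicate 4. AGAP007421 had -0.61, with 1.07 in An. merus and 1.69 in An. coluzzii. AGAP001092 had -0.44, with -0.52 in An. merus and -0.07 in An. coluzzii, and lost the call in 13 of the 32 fits without 1 library.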

How the results depend on the processing

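The changes below appeared mostly with other pseudocounts, with other scaling or without An. coluzzii libraries. Causes of the changes below were not tested, apart from the common-sum shift of all genes and the removal of genes under 5 CPM. The rule chose 49 fallers with a pseudocount of 0.5, and 29 risers and 13 fallers with a pseudocount of 4. With edgeR on recovered reads it chose 81 risers and 81 fallers, and without An. coluzzii 18 h FW replicates 1 and 2 it chose 31 risers and 48 fallers. Without 1 library at a time the fallers numbered 25 to 51. The filter at a mean of 5 CPM left 22 fallers, of which 3 were called higher in An. merus at 18 h and 1 had a negative species-by-age call. The called fallers missing from these counts were removed by the filter. They were AGAP003246, AGAP006785 and AGAP013123, which averaged 3.56, 3.58 and 1.91 CPM. Scaling every library to a common sum moved the median d of all genes to -0.27 in An. merus at 66 h and -0.21 at 18 h, and the risers' median d was then 1.41 and 1.61. Under it, 16 risers were called higher and 18 lower at 66 h in An. merus, and 20 higher and 15 lower in An. coluzzii. Fallers called lower at 66 h were 18 in An. merus and 17 in An. coluzzii, and species-by-age calls of risers were 1 higher and 6 lower.

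Quantile scaling gave 5 risers lower at 66 h in An. merus, 11 fallers lower in An. coluzzii, and species-by-age calls of 6 risers lower and 6 fallers higher. Without An. coluzzii 18 h FW replicates 1 and 2 the species-by-age calls of risers were 1 higher and 1 lower. Without 1 library at a time, fallers higher in An. merus at 66 h numbered 3 to 5, fallers with a positive species-by-age call 3 to 5, fallers lower at 66 h in An. coluzzii 6 to 11, and risers with a negative species-by-age call 2 to 6.

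Common-sum scaling moves all genes together, with medians over all tested genes of -0.47 for age in An. merus, -0.41 for age in An. coluzzii and -0.26 between species at 66 h. Set against 0 rather than against those medians, 13 called differences then changed sign, so these changes say nothing about the members apart from other genes. AGAP001981 was then at -0.0382 between species at 66 h. The age differences in An. merus became -0.22 for AGAP003839, -0.19 for AGAP005417, -0.26 for AGAP006386, -0.19 for AGAP008873, -0.012 for AGAP009167, -0.15 for AGAP009619 and -0.23 for AGAP010336. Those in An. coluzzii became -0.094 for AGAP006386, -0.18 for AGAP009167, -0.12 for AGAP009801, -0.091 for AGAP010863 and -0.12 for AGAP011503. Quantile scaling turned the age difference of AGAP008873 in An. merus to -0.082. The d of An. coluzzii at 18 h ran from -0.085 to 1.15 for AGAP001684 without 1 library at a time, lowest without SW replicate 2. It became -0.00634 for AGAP003713 and -0.0013 for AGAP008521 without FW replicates 1 and 2. Over all settings, 9848 recomputed called differences of members kept their direction and call, 227 lost the call and 14 changed sign. These totals include the refit of each species and age comparison with only its own libraries. Leaving out a library that a comparison does not use cannot change the size or direction of its difference. Part of the kept directions was therefore fixed in advance, and the count is no measure of stability. No paired analysis was possible because the library numbers in the titles are unique and the groups share no replicate number.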

Other observations

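A further 41 genes passed all 4 thresholds with mixed signs and so are no members. In 28 of them d was above 0 in An. coluzzii at 18 h and below 0 in the other 3 comparisons. AGAP006731, for example, had d of -1.62 at 66 h and -1.04 at 18 h in An. merus, and -0.95 at 66 h and 1.08 at 18 h in An. coluzzii. AGAP006983 was above 0 in all but An. coluzzii at 66 h, with 1.25 at 66 h and 2.57 at 18 h in An. merus, and -1.23 at 66 h and 1.28 at 18 h in An. coluzzii. AGAP009591 was above 0 in An. merus at 66 h alone, with 1.29 there and -1.75 at 18 h, and -1.07 at 66 h and -1.33 at 18 h in An. coluzzii. These 3 genes were chosen after their values were seen.

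Between the risers AGAP010854 and AGAP010863 by number, AGAP010858 and AGAP010859 were also higher in SW in all 4 comparisons without being members, and were picked for that. AGAP010858 averaged 26.8 CPM in SW and 2.62 CPM in FW in An. merus at 66 h, and 5.51 CPM in SW and 3.07 CPM in FW in An. coluzzii. AGAP010859 averaged 32.01 CPM in SW and 3.77 CPM in FW in An. merus at 66 h, and 5.204 CPM in SW and 3.86 CPM in FW in An. coluzzii.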
